A study of Homo sapiens with 6 samples.

Results

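The replication-dependent histone genes supply the core histones H2A, H2B, H3 and H4 and the linker histones H1 that package newly copied DNA. They were taken as the genes whose current symbol is H2AC, H2BC, H3C or H4C followed by a number, or H1-1 to H1-5, with pseudogenes left out. The rule uses no measured value. It gave 68 genes of the 60609 listed in the files, namely 5 H1, 17 H2A, 18 H2B, 13 H3 and 15 H4 genes. Of these, 52 lie on chromosome 6 between 25726132 and 27893843, 13 on chromosome 1 and 1 on chromosome 12 (GRCh38, GENCODE 29). The other 2, H3C2 and H3C3, are not in that release.

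Transcription of these genes is tied to S phase through the coactivator NPAT. Most of their mRNAs carry no poly(A) tail and end just past a conserved stem-loop, which is bound by SLBP and cut with the help of the U7 snRNP. Some members also give a longer mRNA with a poly(A) tail, chiefly in cells that have stopped dividing or are differentiating.

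Expression was measured in OCI-AML5, a human acute myeloid leukemia cell line grown in αMEM with serum and GM-CSF. Libraries were made from 3 samples exposed to the solvent DMSO and 3 exposed for 24 hours to 1 μM S767, a compound studied for its activity against leukemia cells. The RNA was selected by its poly(A) tail before a stranded library was made, so the values below describe tailed or otherwise captured histone RNA and not the whole histone mRNA pool. The methods describe the treatment as done in triplicate, and neither they nor the labels say whether these were separate cultures, so p-values measure the spread between these samples, which may be technical. In these bulk samples, fewer cells in S phase and less histone RNA per cell cannot be told apart.

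Libraries held 149994700 to 258029564 fragments counted to genes, and 3 fragments corresponded to 0.0116 to 0.02 CPM (counts scaled to library size, with TMM factors). Of 10 myeloid markers, CD33, SPI1 and LYZ were at 88.6 to 597 TPM (which corrects for transcript length), MPO, PTPRC and CSF2RB at 11.5 to 83.9 TPM, and CSF2RA, CD34, KIT and ELANE at 3.89 TPM or less. Of 9 lymphoid and erythroid markers 7 stayed below 1 TPM, with CD3E, MS4A1 and HBB at 0.01 TPM or less. The other 2, CD79A and NKG7, were at 4.4 to 11.2 TPM, and the 9 summed to 11.2 to 21.2 TPM in DMSO and 12.5 to 22.4 TPM in S767. LYZ stood at 597 and 596 TPM in replicate 1 of DMSO and of S767, against 244 to 264 TPM in the other 4 libraries.

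The stem-loop is what sets these genes apart from other mRNAs, and it is shown for H2AC25, the member of highest TPM in which it was found, for H3C10, the H3 gene of highest TPM, and for an example of each other form. A search within 100 bases after the stop codon for the stem-loop pattern (GG, 3 bases, TTT, 2 bases, A, 3 bases and CC, with paired arms, on the coding strand) found it in 29 members, and in 28 of the 33 whose annotated transcript runs at least 50 bases past the stop codon. Only 2 of 18782 other genes held it (0.0106%), one of which was H2AX. The stem-loop is in capitals, with 5 flanking bases on each side, 5′ to 3′ on the coding strand (GRCh38, GENCODE 29 transcripts).
H2AC25 (chr1:228457364-228457389, minus strand): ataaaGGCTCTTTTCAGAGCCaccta
H3C10 (chr6:27810511-27810536, plus strand): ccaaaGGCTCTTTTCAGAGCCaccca
H2BC4 (chr6:26123467-26123492, minus strand): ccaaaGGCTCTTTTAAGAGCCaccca
H4C16 (chr12:14770719-14770744, minus strand): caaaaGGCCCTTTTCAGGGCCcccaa
H4C14 (chr1:149833027-149833052, plus strand): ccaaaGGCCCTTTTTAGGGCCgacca

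The form shown for H2AC25 and H3C10 was found in 17 members, that of H2BC4 in 4, that of H4C16 in 5 and that of H4C14 in 3. The GGCCC arm was found in H4 genes and the GGCTC arm in H2A, H2B and H3 genes. In the RefSeq promoters (GRCh38.p14, 300 bases around the start), TATAAA on either strand was present in 45 of 67 members (67.2%) and in 11.5% of all 35116 promoters. CCAAT on either strand was present in 57 of 67 (85.1%) and in 34.6% of all. The members differed in how far their annotated transcripts reach. In 23 they ran 300 bases or more past the stop codon, in 11 less far, and in 32 they ended at the coding sequence, among them H1-2, H2BC12 and H2AC20.

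The level of the whole family was low. Summed over the 68 genes, RSEM TPM was 105, 92 and 91.5 in DMSO and 104, 84.1 and 92.2 in S767. The 17 replication-independent histone genes, most of which give polyadenylated mRNA also outside S phase, summed to 3545 to 3760 TPM, which was 35.6 to 42.1 times the members' sum in the same library. Among them H2AZ1, H3-3B and H3-3A had the highest TPM, with H2AZ1 at 923 to 1065.

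Most members contributed little. The 3 with the highest TPM held 43.8% of the members' summed TPM and the 10 highest held 79%. There were 14 members with a mean of at least 1 TPM and 18 below 0.1 TPM. Counts were 0 in every library for 8 members. For H2AC1, H2BC1, H4C6 and H4C7 the RSEM expected count was also 0, which at a limit of 3 counts allows up to 0.02 CPM in the shallowest library, for counting error only. The other 4 share nearly all of their sequence with other genes, and the limit does not hold for them, since fragments that map to several genes are not in the counts. RSEM gave H4C15 5.35 to 171 expected counts, H3C15 16.5 to 45.3, H3C4 at most 9.35 and H2AC7 at most 3.82.

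S767 did not shift the sum beyond the spread between libraries. Summed CPM was 37.6, 32.4 and 31.3 in DMSO (33.8 ± 3.35, SD, n = 3) and 35.8, 31.6 and 32.4 in S767 (33.3 ± 2.22, SD, n = 3), a log2 ratio of -0.02. The groups overlapped, and replicate 1 was the highest library of both. By TPM the log2 ratio was -0.04. The log2 ratios within replicates 1, 2 and 3 were -0.07, -0.04 and 0.05 by CPM.

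**Figure D1:**
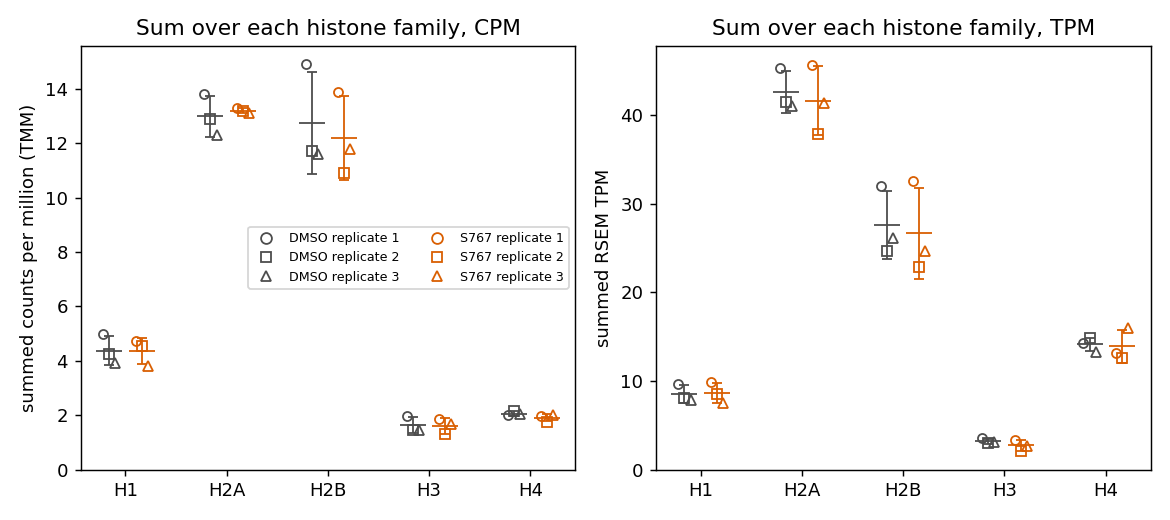
Summed CPM (left) and summed RSEM TPM (right) of each histone family on linear axes from 0, with 1 symbol per library, the horizontal bar at the mean of 3 libraries and error bars of 1 SD. DMSO and S767 libraries overlap in every family on both scales, and replicate 1 is high in both groups for H2B.

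By family, H2A had the highest summed TPM (37.9 to 45.6), followed by H2B (22.9 to 32.5), H4 (12.6 to 16), H1 (7.51 to 9.86) and H3 (2.15 to 3.53). By TPM the ranges of neighbouring families in this order did not overlap. By CPM the order differed, with H1 (3.81 to 4.97) above H4 (1.76 to 2.15), and H2A (12.3 to 13.8) overlapping H2B (10.9 to 14.9). The TPM of H2A and H4 includes H2AC18, H2AC19 and H4C11, whose RSEM expected counts were far above their counts. The log2 ratio of S767 over DMSO in summed CPM was -0.01 for H1, 0.02 for H2A, -0.06 for H2B, -0.02 for H3 and -0.10 for H4, and the groups overlapped in each. In summed TPM it was 0.02, -0.03, -0.05, -0.24 and -0.02 in the same order. For H3 it was below 0 in each replicate pair by TPM (-0.07, -0.47 and -0.24), while by CPM the pairs gave -0.08, -0.15 and 0.18.

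Gene by gene, 39 of the 68 members had enough counts to be tested, and none passed P under 0.05 in either direction by the quasi-likelihood test of edgeR. Over all 20725 genes tested, 2.03% were higher and 1.51% lower in S767 at that limit. None of the 39 passed an adjusted p of 0.05 either (all at adjusted p = 1), where 0.00483% of all genes, a single gene, was called higher and 0% lower. limma-voom and DESeq2 also gave 0 members at P under 0.05, against 3.42% and 3.07% of all genes in either direction. The median log2 fold change was -0.02 for the members and 0.00 over all genes, and 14 of 39 members were above 0, against 49.8% of all genes.

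These tests had limited precision for most members. The median standard error of the log2 fold change was 0.26 for the members and 0.12 over all genes. The 95% interval lay within 1 log2 unit of 0 for 28 of the 39, against 84.5% of all genes, and within 0.5 for 8, against 60.7%. For the 10 members with at least 100 counts in every library the fold changes ran from -0.15 to 0.07, and no interval reached below -0.50 or above 0.54, or with the replicate block below -0.42 or above 0.34.

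**Figure D2:**
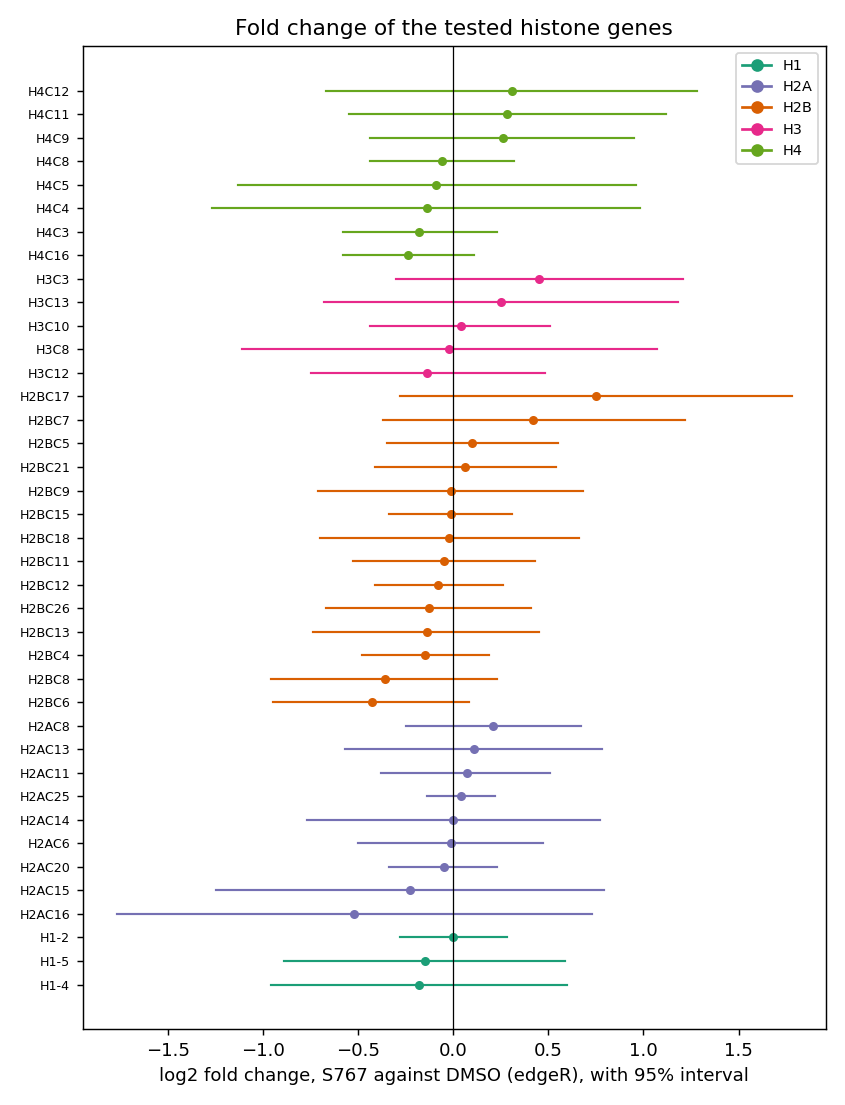
Log2 fold change of S767 against DMSO (edgeR, 3 libraries a group) for the 39 tested histone genes, coloured by family, with 95% intervals as lines. Every interval crosses 0, and the fold changes run from -0.52 (H2AC16) to 0.75 (H2BC17).

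The linker histones bind the DNA that enters and leaves the nucleosome. H1-2 was the main H1 gene in these cells, with 4.7, 4.04 and 3.78 CPM in DMSO and 4.53, 4.32 and 3.64 CPM in S767. The libraries of the groups interleaved, with a mean of 4.17 CPM in both and a 95% interval of the log2 fold change from -0.28 to 0.28. H1-4 (13 to 31 counts) and H1-5 (14 to 19 counts) had log2 fold changes of -0.18 and -0.15, with standard errors of 0.34 and 0.32. From RSEM expected counts H1-5 was at -0.80 (edgeR adjusted p = 0.999), and without DMSO replicate 1 H1-4 was at 0.18. H1-1 and H1-3, with at most 3 and 6 counts in a library, were not tested.

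H2A pairs with H2B in the nucleosome. H2AC25, which lies outside the main cluster, on the long arm of chromosome 1, gave the tightest estimate of all members. It had 7.4, 7.69 and 7.56 CPM in DMSO and 7.19, 8.3 and 7.84 CPM in S767. The groups overlapped, with a log2 fold change of 0.04 ± 0.08 (SE; 95% interval -0.14 to 0.22). Its TPM was 13.6 to 14.9 over the 6 libraries.

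H2AC6, a member known to give polyadenylated mRNA, had 2.51, 1.94 and 1.67 CPM in DMSO and 2.62, 1.74 and 1.69 CPM in S767. Replicate 1 was the highest in both groups, and the means were 2.04 and 2.02 CPM. H2AC20 (1.25 to 1.56 CPM) and H2AC11 (0.963 to 1.52 CPM) had log2 fold changes of -0.05 and 0.07 and overlapped between groups. The lowest P among H2A genes was that of H2AC8, at 0.188 to 0.211 CPM in DMSO and 0.208 to 0.248 CPM in S767 (log2 fold change 0.21 ± 0.20, SE, edgeR adjusted p = 1).

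Among H2B genes, H2BC12 had the highest TPM of all members, 15.3 to 22.1. Its transcript in GENCODE 29 ends at the coding sequence, and its counts (783 to 1591) were above its RSEM expected counts (311 to 653). So it was for H1-2 (601 to 1080 against 375 to 719) and H2AC20 (207 to 349 against 114 to 194), whose transcripts end there too. The gene models behind the 2 files may differ, which was not tested, and the TPM and rank of these genes are uncertain. H2BC12 stood at 7.28, 5.27 and 5.45 CPM in DMSO and 6.61, 5.25 and 5.23 CPM in S767. Replicate 1 was again the highest of each group, and the log2 fold change was -0.08 (95% interval -0.41 to 0.26). Of its 100-base windows 28.4% were also found in a transcript of a gene outside the family.

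H2BC6 had the lowest P of the 39 members. It had 0.49, 0.383 and 0.406 CPM in DMSO and 0.407, 0.251 and 0.284 CPM in S767, so that only S767 replicate 1 reached into the DMSO range. The log2 fold change was -0.43 ± 0.23 (SE, edgeR adjusted p = 1). With the replicate number as a block it was -0.44 (edgeR adjusted p = 0.205), the single member at P under 0.05 in that fit, where 7.39% of all genes were lower and 9.38% higher at the same limit and 3.23% passed the adjusted limit in either direction. Without S767 replicate 1 the fit without the block gave -0.67 (edgeR adjusted p = 0.931, with P under 0.05).

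H2BC17 had the largest positive fold change, from few counts. It had 7, 4 and 16 counts in DMSO and 11, 17 and 15 in S767. The groups overlapped through DMSO replicate 3, and the log2 fold change was 0.75 ± 0.45 (SE, edgeR adjusted p = 1), or 1.24 without that library (P under 0.05, edgeR adjusted p = 1). H2BC7 had 8 to 19 counts in DMSO and 10 to 22 in S767, with a log2 fold change of 0.42 ± 0.35 (SE). H2BC8 had 0.471, 0.875 and 0.507 CPM in DMSO and 0.529, 0.503 and 0.386 CPM in S767, overlapping, with a log2 fold change of -0.36 ± 0.26 (SE).

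H3 and H4 form the central tetramer of the nucleosome. H3C10, the H3 gene with the highest TPM (0.91 to 1.54), had 1.25, 0.881 and 0.928 CPM in DMSO and 1.29, 0.804 and 1.04 CPM in S767. The groups overlapped, and the log2 fold change was 0.04 (95% interval -0.44 to 0.51). H3C3 had 7 to 21 counts in DMSO and 19 to 22 in S767, with a log2 fold change of 0.45 ± 0.33 (SE). H3C12 had a log2 fold change of -0.14 from counts and of -0.22 on the log2(TPM + 1) scale (limma adjusted p = 1, with P under 0.05, as for 4.07% of all genes on that scale), with 0.52 to 0.62 TPM in DMSO and 0.32 to 0.44 TPM in S767. Another member, H2AC17, shares sequence with it. On log2(TPM + 0.1), H3C11, H3C12 and H4C12 were lower at P under 0.05, where 3.97% of all genes passed in either direction, and none of them passed the adjusted limit (limma adjusted p = 1). H3C11 (5 to 12 counts) was lower in CPM too but was not tested from counts. For H4C12 the direction depended on the measure. Its TPM was 1.52, 0.46 and 0 in DMSO and 0 in each S767 library. Its mean CPM was higher in S767 (0.0842) than in DMSO (0.065), and the count-based estimate was 0.31 ± 0.43 (SE). H4C12 shares 100% of its windows with H4C11, so the split of fragments between these genes is uncertain. H3C13 had 6 to 20 counts in DMSO and 11 to 24 in S767.

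H4C16, the member on chromosome 12, was the single tested member whose groups did not overlap in CPM. It had 0.572, 0.619 and 0.619 CPM in DMSO and 0.571, 0.469 and 0.493 CPM in S767, with DMSO replicate 1 and S767 replicate 1 nearly equal. The log2 fold change was -0.24 ± 0.15 (SE, edgeR adjusted p = 1), and an exact permutation test gave p = 0.1, two-sided, the smallest that 3 against 3 allows. Over all genes tested, 4.08% were lower and 5.12% higher in S767 without overlap. By TPM its groups overlapped (0.28 to 0.68 in DMSO and 0.4 to 0.85 in S767). H4C3 had 0.444 to 0.453 CPM in DMSO and 0.353 to 0.472 CPM in S767, and H4C8 had 0.41 to 0.467 and 0.378 to 0.462 CPM.

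**Figure D3:**
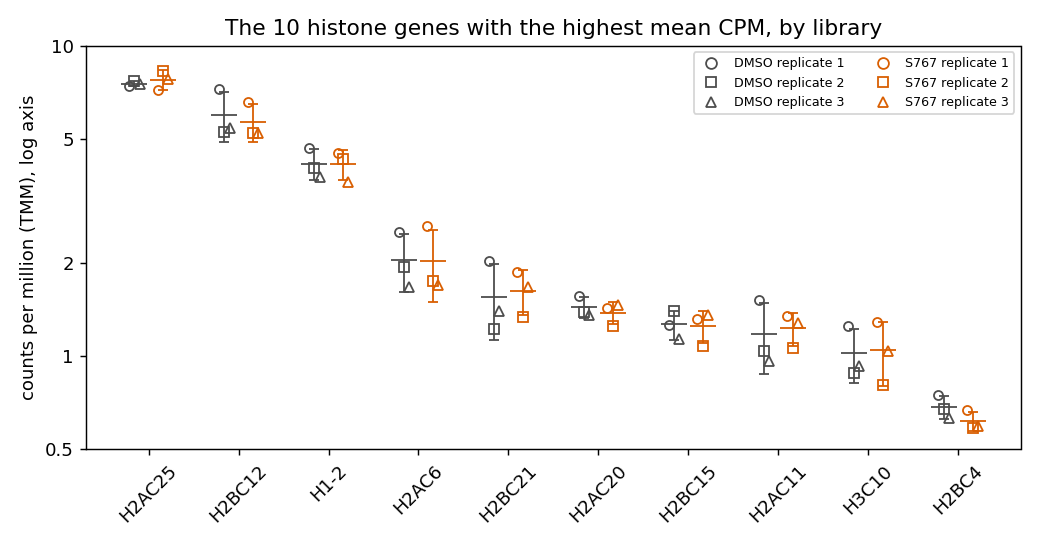
CPM on a log axis for the 10 members with the highest mean CPM, with 1 symbol per library, the bar at the mean of 3 libraries and error bars of 1 SD. DMSO and S767 overlap for each gene, and replicate 1 (circles) is the highest library of both groups for 7 of the 10.

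Members known to give polyadenylated mRNA were listed separately, since poly(A) selection captures them. The 9 listed (H1-2, H2AC6, H2BC4, H2BC5, H2BC9, H2BC11, H2BC12, H2BC21 and H4C8) were all tested and held 36% of the members' summed TPM. None passed P under 0.05 in edgeR without the block, where 2.03% of all genes were higher and 1.51% lower. With the block none passed either, where 9.38% of all genes were higher and 7.39% lower. Of the 9, 2 were above 0, against 49.8% of all genes, and the median log2 fold change was -0.01. limma-voom and DESeq2 gave 0 as well, against 3.42% and 3.07% of all genes in either direction. H2BC21 (1.22 to 2.03 CPM in DMSO, 1.33 to 1.86 CPM in S767), H2BC5 (0.522 to 0.627 and 0.491 to 0.781 CPM) and H2BC4 (0.63 to 0.746 and 0.586 to 0.668 CPM) overlapped between groups. Summed, the 9 stood at 19.2, 14.6 and 14.6 CPM in DMSO and 18.2, 14.7 and 14.6 CPM in S767. The groups overlapped, and replicate 1 was the highest in both.

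Several members have near-identical copies, and the count files and RSEM treated these differently. In 14 of the 66 members with a GENCODE 29 transcript, at least 50% of the 100-base windows occur in a transcript of another gene. These 14 held 1.76% of the members' summed CPM and 30.4% of their summed TPM. H2AC19 had at most 1 count in a library and 6.31 to 12.1 TPM, and H2AC18 at most 5 counts and 1.19 to 12.3 TPM. H2AC18 and H2AC19 share 100% and 96.8% of their windows with other genes, so the split of fragments between them is uncertain. H4C14 (at most 3 counts, 1.51 to 1.98 TPM) and H4C11 (14 to 31 counts, 6.55 to 9.7 TPM) are uncertain in the same way. H2AC17 (at most 2 counts, 1.01 to 1.52 TPM) is not such a copy. It shares 84% of its windows with H3C12, whose annotated gene overlaps it on the same strand, so the split between these 2 is also uncertain. RSEM expected counts, which include such fragments, gave 0 of 41 tested members at P under 0.05, against 3.7% of all genes in either direction.

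**Figure D4:**
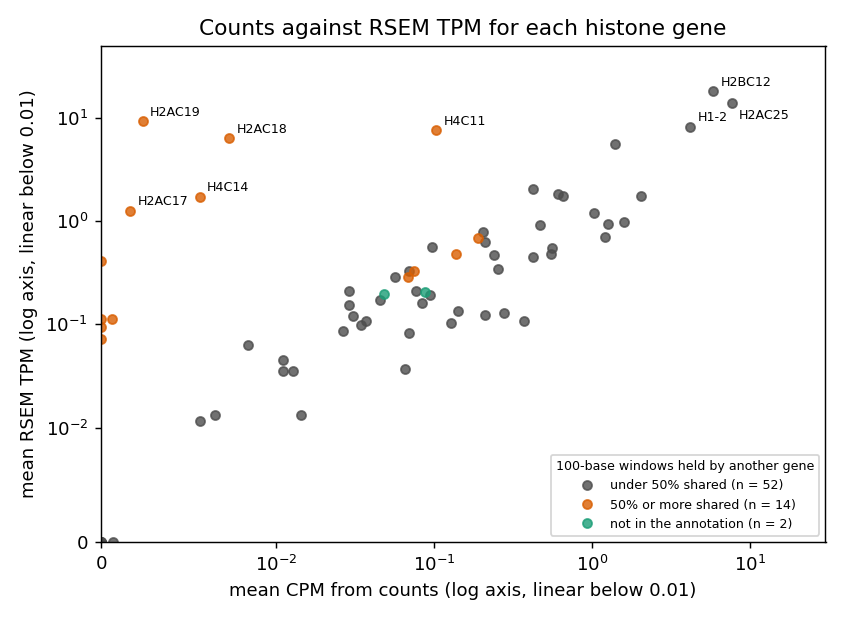
Mean CPM from the counts against mean RSEM TPM for the 68 members, on log axes that are linear below 0.01, coloured by the share of 100-base windows found in another gene. H2AC17, H2AC18, H2AC19, H4C11 and H4C14, with 50% or more shared, lie far above the other members at the same CPM.

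The factors that make and process histone mRNA were described from a list of 30, all tested. The median log2 fold change was 0.01. At P under 0.05, where 2.03% of all genes were higher and 1.51% lower, 0 factors were higher and 1 was lower. It was NFYA, a subunit of the factor that binds CCAAT, at 74.7 to 79.5 CPM in DMSO and 71.7 to 73.5 CPM in S767 (log2 fold change -0.10, edgeR adjusted p = 1). With the block 1 factor was higher and 5 were lower at P under 0.05 (9.38% and 7.39% of all genes), and POU2F1, an octamer-binding factor, passed the adjusted limit (log2 fold change -0.12, adjusted p = 0.0273). LSM4 and SRRT, with SLBP among the listed factors of highest TPM, had log2 fold changes of 0.04 and -0.07.

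SLBP, which binds the stem-loops printed above, had 156, 158 and 157 CPM in DMSO and 145, 153 and 153 CPM in S767. Every S767 library was below every DMSO library, as for 4.08% of all genes tested. The log2 fold change was -0.06 ± 0.04 (SE, edgeR adjusted p = 1), and with the block P was under 0.05 (edgeR adjusted p = 0.195). NPAT was at 15.1 to 16.6 CPM in DMSO and 15.7 to 17.3 CPM in S767, overlapping.

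The list of 24 S phase genes also holds SLBP. At P under 0.05, 1 of the 24 was higher and 1 lower, where 2.03% of all genes were higher and 1.51% lower. With the block 3 were higher and 6 lower, where 9.38% of all genes were higher and 7.39% lower. The 6 were UNG, SLBP, the replicative helicase subunits MCM3, MCM5 and MCM6, and GINS2, a partner of that helicase, with log2 fold changes from -0.18 to -0.06, and of these UNG passed the adjusted limit. RRM2, a subunit of ribonucleotide reductase, had 395, 413 and 390 CPM in DMSO and 445, 455 and 410 CPM in S767, with S767 replicate 3 inside the DMSO range (log2 fold change 0.13, edgeR adjusted p = 1, and adjusted p = 0.0186 with the block). UNG, the uracil-DNA glycosylase, had 90.2, 93.1 and 95.1 CPM in DMSO and 77, 86.4 and 83.2 CPM in S767. It was lower without overlap, as were 4.08% of all genes tested (log2 fold change -0.17, edgeR adjusted p = 1, and adjusted p = 0.00582 with the block). PCNA, MCM4 and MCM7 had log2 fold changes of 0.05, -0.03 and -0.03.

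Of 12 tested replication-independent histone genes and 20 histone chaperones, 0 were past P under 0.05 in edgeR without the block. At that limit 2.03% of all genes were higher and 1.51% lower. With the block 2 of the histone genes were higher and 1 lower, and 1 chaperone was higher and 2 lower, where 9.38% of all genes were higher and 7.39% lower. H1-10, a linker histone made outside S phase, passed the adjusted limit in that fit (log2 fold change -0.11, edgeR adjusted p = 0.036). limma-voom and DESeq2 gave 0 genes of both lists at P under 0.05, against 3.42% and 3.07% of all genes in either direction. The chaperones with the highest TPM, NAP1L1, SSRP1 and NASP, had log2 fold changes of -0.03, 0.04 and -0.07.

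Other RNAs without poly(A) tails were listed for comparison, and 9 of 28 were tested. The number tested does not measure capture, since RN7SK, RMRP and RPPH1 had 0 counts but 53.3 to 164 RSEM expected counts. At P under 0.05, 2.03% of all genes were higher and 1.51% lower, and of the 9, 2 were higher and 0 lower. These were the minor-spliceosome RNAs RNU4ATAC (0.0366 to 0.0404 CPM in DMSO, 0.061 to 0.0798 CPM in S767) and RNU6ATAC (0.0336 to 0.0387 and 0.0503 to 0.0762 CPM), neither past an adjusted p of 0.05 in edgeR. Their counts were low, 6 to 19 per library for RNU4ATAC and 5 to 17 for RNU6ATAC. Both were no longer past P under 0.05 with the block (edgeR adjusted p = 0.319 and 0.335). In DESeq2 0 of the 9 were past it, and in limma-voom 2 were higher, against 3.07% and 3.42% of all genes in either direction. RN7SL1 and RN7SL2, signal recognition particle RNAs and near-identical copies, had 119 to 131 and 69.7 to 95.4 TPM in DMSO and 109 to 176 and 70.2 to 162 TPM in S767, overlapping. RN7SL2 was at 0 in the counts. MALAT1, a long nuclear RNA without a tail, had 207, 191 and 182 CPM in DMSO and 241, 194 and 218 CPM in S767, overlapping, with a log2 fold change of 0.17 (edgeR adjusted p = 1, and adjusted p = 0.0306 with the block). The part that capture of untailed RNA has in the histone values was not tested.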

How the data were processed

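Poly(A)-selected, stranded RNA-seq libraries of OCI-AML5 cells (3 DMSO, 3 S767) were analysed. The authors used STAR 2.7.1a and RSEM 1.2.28 with GRCh38, per the submitters' processing notes, and their methods add adapter trimming with Trimmomatic and name another RSEM version. The annotation release is not given in the sources used here. They deposited whole-number counts per gene without normalization, of which the reverse-strand column was used, and RSEM expected counts and TPM. The summary lines that name no gene, 19.68 to 20.71% of fragments per library, were left out. Multimapping fragments are in those lines, which lowers counts of near-identical genes, while RSEM divides such fragments among them.

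Symbols were matched through the gene name table (66 members) and RefSeq synonyms (2 members). Counts were scaled by TMM, kept by filterByExpr (minimum count 10) and S767 was tested against DMSO in edgeR (version 4.0.16, R version 4.3.3) by quasi-likelihood, with p-values adjusted by Benjamini and Hochberg's method over all 20725 genes. RSEM expected counts were rounded to whole numbers before testing. The permutation test used log2 CPM (prior count 2). The model was tested on simulated data. Gene totals were 149994700 to 258029564, so counting error is small except for members with few counts. No 2 libraries were repeats.

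Replicate numbers pair the libraries. Deviations from group means over 6191 genes correlated at 0.779, 0.872 and 0.754 between same-numbered libraries. The pairing comes from these values, as the labels do not say what a number shares. The design has no block, and the blocked fit is an alternative. Other alternatives were DESeq2 (1.42.0), limma-voom (3.58.1), no TMM factor, RLE factors, other limits on low counts, RSEM expected counts, limma on log2(TPM + 1) and log2(TPM + 0.1), strand ignored, and each library left out.

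Named genes were the 3 members of each family with the highest mean TPM, all H1 genes, members past an adjusted p of 0.05 with or without the block, the 5 tested members of lowest P per direction, the polyadenylated members, SLBP, NPAT, and from other lists the 3 genes of highest TPM and up to 5 past an adjusted p of 0.05. Among the genes named outside this rule after their values were seen were H2AC11, H2AX, NFYA, RNU4ATAC, RNU6ATAC, RN7SK, RMRP, RPPH1 and the lymphoid and erythroid markers. The members and lists were chosen with earlier results of these data known. One marker of the lymphoid and erythroid list is not reported here.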

Additional observations from a re-analysis of the deposited data

How the results depend on the processing

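The count of members at P under 0.05, 0 of 39, became 1 with the replicate block (16.8% of all genes). It was 3 of 50 on log2(TPM + 1) (4.07%), 3 of 50 on log2(TPM + 0.1) (3.97%), and 0 to 1 when a library was left out. It was 1 without DMSO replicate 3 (2.53% of all genes) and without S767 replicate 1 (4.91%). In fits chosen after seeing the data, the block without the replicate 1 pair gave 2, where 21.1% of all 20629 genes passed. Of the 2, H2BC8 passed an adjusted p of 0.05 (log2 fold change -0.60, edgeR adjusted p = 0.0343), as did 2034 of the 20629 genes. Leaving out a library gave 0 members at that adjusted limit each time. The median log2 fold change, -0.016, ranged from -0.089 to 0.101 when a library was left out, and the log2 ratio of the summed CPM, -0.022, from -0.077 to 0.062. Both were positive without DMSO replicate 1 and without S767 replicate 2. Of the 94 tested genes of the 5 other lists, 5 were at P under 0.05, where 2.03% of all genes were higher and 1.51% lower. The 5 became 3 with at least 10 counts in every library, 3 with DESeq2 (3.07% of all genes) and 3 with RSEM expected counts (3.7%). The count was 8 on log2(TPM + 1) (4.07%), 21 with the replicate block (16.8%) and 1 to 6 when a library was left out. Added after seeing the data, RSEM counts with the replicate block gave 27. The block without the replicate 1, 2 or 3 pair gave 33, 16 and 17, and without the replicate 1 pair 21.1% of all genes passed. Where no share over all genes stands beside a count here, that count cannot be weighed against one. The cause of these differences was not tested. For the members the blocked fit changed no other call. Among markers it brought CD33 past the adjusted limit (log2 fold change 0.11, edgeR adjusted p = 0.0241). Of the 29 members that were not tested, 7 were tested with RSEM expected counts, which keep fragments shared between genes. Few counts limit the other 22 and the tested members with under 100 counts.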

Other observations

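Fragments on the strand opposite to the gene were counted at 2 members far above their own strand. At H4C9 the opposite strand held 391 to 795 counts per library, against 17 to 44 on the strand of the gene. At H2BC18 it held 202 to 574 counts, against 26 to 81. A count that ignores strand would take most of its fragments from the opposite strand at these genes.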
